A study of Mus musculus with 6 samples.

Results

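The TGF-beta and activin pathway was described in mouse hippocampus 24 h after traumatic brain injury (TBI) through 9 genes: the ligands Tgfb1, Tgfb2 and Tgfb3, the receptors Tgfbr1 and Tgfbr2, the activin subunit gene Inhba, the activin antagonist Fst, the feedback gene Smad7 and the target and activator gene Thbs1. They were chosen by symbol from the 52550 genes listed for every library. The TBI group comprised 3 male mice, labelled C57BL / 6 and given as C57B6/J in the study's methods, aged 8 to 10 weeks, that received a controlled cortical impact of moderate severity through a craniotomy over the right parietal bone. The sham group comprised 3 mice of the same strain, sex and age that underwent the same anaesthesia and craniotomy without the impact. Hippocampal tissue was taken 24 h after surgery and 1 library was made per mouse (Sham1 to Sham3 and TBI1 to TBI3). Both hippocampi were exposed at dissection, and the study describes its sample as whole hippocampus. Which side went into a library is not given in the sources used here. The sham mice carried a craniotomy, so the comparison is of the impact and not of surgery.

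The TGF-beta ligands are secreted bound to a latency peptide and are released from it by integrins, proteases and thrombospondin 1. Active TGF-beta binds a type II receptor, which recruits and phosphorylates a type I receptor, and the type I receptor phosphorylates Smad2 and Smad3, which enter the nucleus with Smad4. Activins are dimers of inhibin beta subunits that act on the same Smads through their own receptors and are bound by follistatin. In brain, TGF-beta maintains microglial identity and is linked to the glial scar, and Inhba is an activity-regulated gene of hippocampal neurons.

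The counts summed to between 31630936 and 41771872 per library. The deposited values were treated as estimated counts, because the value 4 was more frequent than 3 or 5. The step from StringTie's coverage to counts is also not given in the sources used here. Levels are given as CPM, counts relative to the TMM-scaled library size, with 3 mice per group. Markers of the dentate gyrus, CA1 and CA3 were detected in every library. Several libraries stood apart. The 8 reactive astrocyte markers summed to 4950 CPM in Sham2 and to between 637 and 1762 CPM in the other 5 libraries, and 7 of the 8 were highest in Sham2. Gfap, the intermediate filament of astrocytes, was at 4055 CPM in Sham2, 623 CPM in Sham1 and 632 CPM in Sham3. The highest value of this list was thus in a library labelled sham, and the values of the 9 genes and of the pathway lists without it are given where their direction turned. The labels were used as given. Whether labelling or dissection differed between libraries was not tested, and either would change what a difference between TBI and sham means. The 8 striatal markers summed to 4127 CPM in TBI1 against 186 to 264 CPM elsewhere, and the 6 cerebellar markers summed to 1721 CPM in TBI3 against 35.9 to 128 CPM elsewhere. The 7 choroid plexus markers summed to between 2027 and 2354 CPM in Sham1, Sham3 and TBI2 but to 54.4 CPM in Sham2, 242 CPM in TBI1 and 259.9 CPM in TBI3. The dentate markers were lowest in TBI1, at 144 CPM against 180 to 362 CPM elsewhere. In tissue RNA, fewer cells of a type and less RNA per cell cannot be told apart.

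All 9 genes passed the filter on low counts, which kept 18795 genes. The quasi-likelihood (QL) test of edgeR called 0 of the 9 genes, against 0% of all genes tested, with the study's thresholds of p under 0.05, adjusted p under 0.1 and a change of 1.5-fold either way. An unadjusted p under 0.05 was reached by 1 of the 9, Tgfb3, against 4.29% of all genes tested (2.16% higher and 2.13% lower in TBI). DESeq2 with its defaults called 0 of the 9 as well, where it called 46 genes (0.164%), and it gave an unadjusted p under 0.05 to 2 of them, Tgfb2 and Tgfb3 (4.11% of all genes). Levels were fully separated between the groups in 1 of the 9 genes, again Tgfb3, against 10.2% of all genes tested (4.77% higher and 5.45% lower in TBI). The highest of the 6 libraries was Sham2 for 4 of the 9 genes, against 23.7% of all genes tested. Of the 9 genes, 3 had a higher and 6 a lower fitted level in TBI, and the median log2 fold change was -0.27, where the median over all genes tested was 0.0091. Without Sham2 the median of the 9 genes was 0.24.

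**Figure D1:**
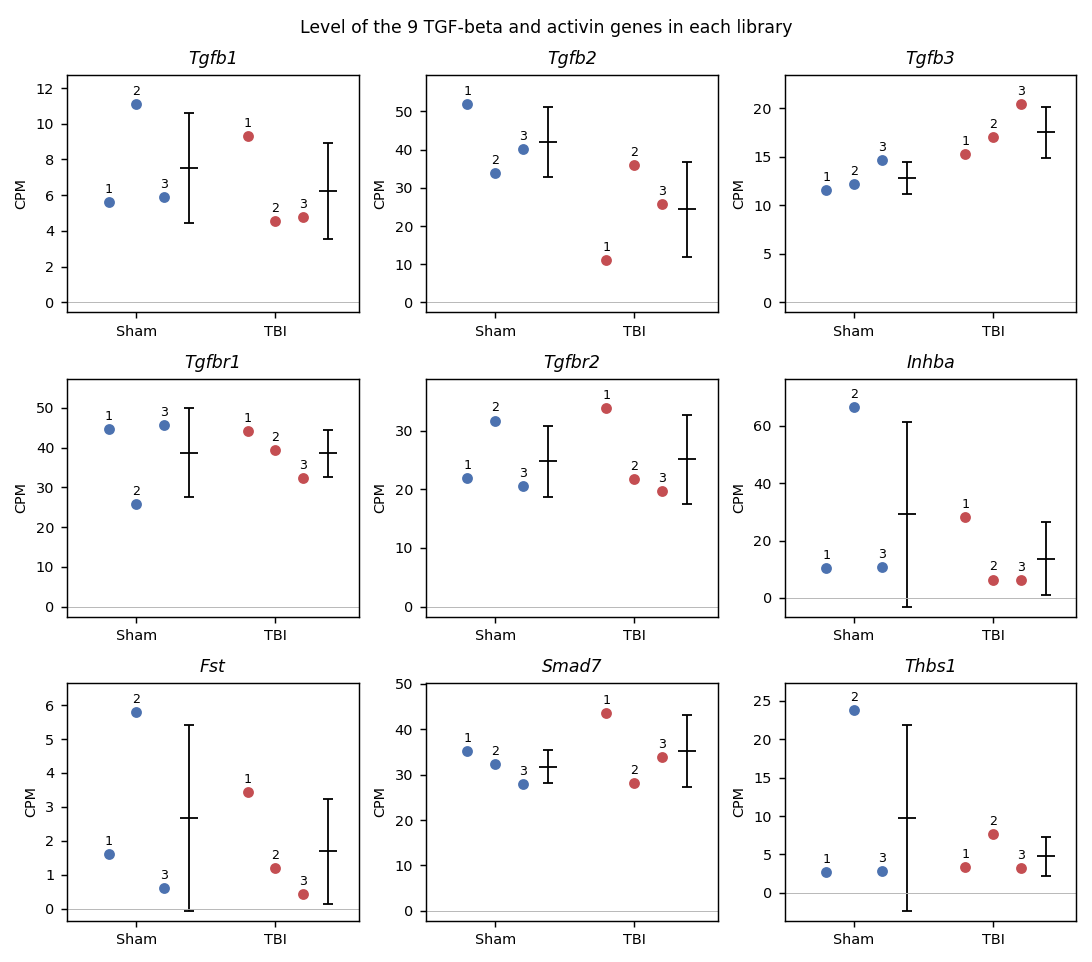
Level of each gene in CPM (vertical axes, linear, each with its own range) in the 3 sham (blue) and 3 TBI (red) libraries, where the digit is the mouse number and the black bar is the mean with its SD. Tgfb1, Inhba, Fst and Thbs1 were highest in Sham2, Tgfb2 was lowest in TBI1, and only in Tgfb3 did the groups not overlap.

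Tgfb3 encodes the ligand TGF-beta 3 and lies on the minus strand of chromosome 12 of GRCm38, from 86056745 to 86079041. Its level was 11.6 CPM in Sham1, 12.2 CPM in Sham2 and 14.7 CPM in Sham3, and 15.3 CPM in TBI1, 17.0 CPM in TBI2 and 20.4 CPM in TBI3. Every TBI library was above every sham library, by a narrow margin between Sham3 and TBI1. Sham libraries averaged 12.8 ± 1.66 CPM and TBI libraries 17.6 ± 2.63 CPM (SD, n = 3 each), and the log2 fold change was 0.45 (standard error, SE, 0.19). The edgeR QL test gave an adjusted p of 0.982 and an unadjusted p of 0.0467. The two-sided exact permutation test gave p = 0.1, the smallest that 3 against 3 allows. Leaving out any 1 library kept the log2 fold change between 0.32 and 0.56, but the unadjusted p was above 0.05 without Sham1 (0.128), Sham2 (0.0951), TBI2 (0.0849) or TBI3 (0.154), and with library totals in place of TMM (0.0554). The 6 thalamic markers summed to 155, 71.3 and 387 CPM in sham and to 60.6, 371 and 486 CPM in TBI, and the 6 cerebellar markers to 47.6, 49.3 and 128 CPM in sham and to 35.9, 86.0 and 1721 CPM in TBI. Both lists were highest in Sham3 and TBI3 within their groups, as Tgfb3 was, with Gabra6 at 0 in Sham1, Sham2 and TBI1 and Fat2 at 0 in Sham1. The part of these markers in the level of Tgfb3 was not tested. A pair of genes on the opposite strand share exonic bases with Tgfb3, Gm48008 with 257 bases (7.60%) and Gm37804 with 163 bases (4.82%). Gm48008 had 45 to 63 counts and Gm37804 at most 3, against 469 to 727 for Tgfb3. Whether the libraries were stranded is not given in the sources used here, so the shared stretch cannot be assigned to 1 strand.

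Tgfb2 encodes TGF-beta 2 and lies on the minus strand of chromosome 1, from 186622792 to 186705989. Its level was 51.9 CPM in Sham1, 34.0 CPM in Sham2 and 40.1 CPM in Sham3, and 11.2 CPM in TBI1, 36.0 CPM in TBI2 and 25.9 CPM in TBI3. The groups overlapped, since TBI2 was above Sham2, and TBI1 was far below the other libraries. Sham libraries averaged 42.0 ± 9.10 CPM and TBI libraries 24.3 ± 12.5 CPM (SD, n = 3 each), and the log2 fold change, -0.79 (SE 0.41), did not pass the test (edgeR QL adjusted p 0.982). The exact permutation test gave p = 0.2. The log2 fold change was negative whichever library was left out, from -1.19 without TBI2 to -0.44 without TBI1. Without TBI1 and TBI3, the libraries with striatal and cerebellar markers, it was -0.22 (SE 0.30), a value that sets TBI2 alone against 3 sham libraries and takes it to vary as they do. Most dentate granule cell markers moved with this gene in TBI1: 5 of the 7 dentate markers and all 5 CA3 markers were lowest there, and none was at 0. The other dentate markers did not: Pdzd2, the most abundant of the list, was highest in TBI1, and Trpc6 was lowest in TBI3. All 7 choroid plexus markers were higher in Sham1, Sham3 and TBI2, the 3 libraries with the highest Tgfb2, than in the other 3, and none was at 0. Their summed level was 2027, 54.4 and 2073 CPM in sham and 242, 2354 and 259.9 CPM in TBI. The part of these marker lists in the level of Tgfb2 was not tested. C1ql2, a secreted synaptic protein of granule cells chosen after its values were seen, had 2175 to 3483 counts in sham, 100 in TBI1, 2007 in TBI2 and 1411 in TBI3. The antisense gene Gm29491, which shares 124 bases (2.14%) with Tgfb2, had 27 to 42 counts in the sham libraries and 5, 15 and 17 in TBI1 to TBI3.

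The 250 bases before the RefSeq start of Tgfb2 (GRCm38.p6, minus strand, chr1:186705990-186706239) are shown because this ligand had the widest spread of the 3 among the TBI libraries. Capitals mark matches on either strand to a TATA box (TATAAA), an E-box (CACGTG) and the SMAD-box letters CAGAC.

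Tgfb2: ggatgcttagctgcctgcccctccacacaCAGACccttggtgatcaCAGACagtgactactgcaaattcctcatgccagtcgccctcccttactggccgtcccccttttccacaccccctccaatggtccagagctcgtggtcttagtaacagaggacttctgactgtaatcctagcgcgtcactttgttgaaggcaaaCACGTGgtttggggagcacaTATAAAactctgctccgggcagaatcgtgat

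The TATAAA match starts 31 bases and the CACGTG match 51 bases before the start, and CAGAC is found 204 and 221 bases before it. Of 27025 such windows of mouse genes, 12.97% hold TATAAA, 6.05% hold CACGTG and 42.1% hold CAGAC, so the last of these is common. A match is a description of the letters and not a bound site.

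Tgfb1 encodes TGF-beta 1, which in brain comes largely from microglia, and lies on the plus strand of chromosome 7, from 25687002 to 25705077. Its level was 5.61 CPM in Sham1, 11.1 CPM in Sham2 and 5.91 CPM in Sham3, and 9.33 CPM in TBI1, 4.58 CPM in TBI2 and 4.80 CPM in TBI3. Sham2 and TBI1 were high and the other 4 libraries lay close together, and 27.4% of all genes tested had a ratio of highest to lowest sham library at least as large. Sham libraries averaged 7.54 ± 3.08 CPM and TBI libraries 6.24 ± 2.68 CPM (SD, n = 3 each), and the log2 fold change was -0.27 (SE 0.41, edgeR QL adjusted p 0.983). The direction depended on 1 library: it was 0.12 without Sham2 and -0.68 without TBI1. The 10 microglia markers summed to between 370 and 494 CPM in sham and between 363 and 727 CPM in TBI. Of these markers 8 were highest in TBI1, 1 in Sham2 and 1 in TBI2, and none was at 0. P2ry12 was lowest in Sham2, the library in which Tgfb1 was highest. The part of the microglia markers in the level of Tgfb1 was not tested.

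Per kilobase of exon, which allows levels of different genes to be compared, Tgfb2 made up 66.4%, 50.2% and 55.7% of the summed level of the 3 ligands in Sham1 to Sham3. In TBI1 to TBI3 it made up 23.3%, 51.2% and 39.0%. Tgfb3 made up 25.4% to 34.9% in sham and 41.4% to 54.4% in TBI, and Tgfb1 8.24% to 18.8% in sham and 7.48% to 22.3% in TBI. Tgfb2 was thus the main ligand in every sham library and in TBI2, and Tgfb3 was the main ligand in TBI1 and TBI3.

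Tgfbr1 encodes the type I and Tgfbr2 the type II TGF-beta receptor. Tgfbr1 (chromosome 4, plus strand, 47353222 to 47414931) was at 44.6, 25.7 and 45.6 CPM in Sham1 to Sham3 and at 44.0, 39.4 and 32.3 CPM in TBI1 to TBI3. Its lowest library was Sham2 and the TBI libraries lay inside the sham range. Sham libraries averaged 38.6 ± 11.2 CPM and TBI libraries 38.6 ± 5.92 CPM (SD, n = 3 each), and the log2 fold change was -0.0023 (SE 0.25, edgeR QL adjusted p 0.9995). Without Sham2 it was -0.23, and the groups then did not overlap, as for 20.4% of all genes tested. Tgfbr2 (chromosome 9, minus strand, 116084293 to 116175360) was at 21.95, 31.7 and 20.6 CPM in sham and at 33.8, 21.7 and 19.8 CPM in TBI. Here Sham2 and TBI1 were the high libraries. The log2 fold change of Tgfbr2 was 0.020 (SE 0.27, edgeR QL adjusted p 0.996), and it was 0.24 without Sham2 and -0.25 without TBI1. The direction of both receptor genes thus changed with the library left out. Per kilobase, the level of Tgfbr1 was 2.55 and 2.77 times that of Tgfbr2 in Sham1 and Sham3, 1.02 times in Sham2, and 1.63 to 2.27 times in TBI.

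Inhba encodes the inhibin beta A chain, whose dimer is activin A. It lies on the plus strand of chromosome 13, from 16011851 to 16031621. Its level was 10.3 CPM in Sham1, 66.5 CPM in Sham2 and 10.9 CPM in Sham3, and 28.3 CPM in TBI1, 6.42 CPM in TBI2 and 6.15 CPM in TBI3. Sham2 stood far above every other library, TBI1 came next, and the TBI2 and TBI3 libraries were below Sham1 and Sham3. The highest sham library was 6.42 times the lowest, a ratio that 5.97% of all genes tested reached or passed. Sham libraries averaged 29.2 ± 32.3 CPM and TBI libraries 13.6 ± 12.7 CPM (SD, n = 3 each). The log2 fold change was -1.10 (SE 0.94, edgeR QL adjusted p 0.982), smaller than the spread within the sham group. Leaving out Sham2 turned it to 0.36 and leaving out TBI1 moved it to -2.22. With both left out, an alternative chosen after seeing the data, it was -0.76 (edgeR QL unadjusted p 0.0127 and adjusted p 0.853 on 2 against 2 libraries). In that setting 2 of the 9 genes, Tgfb2 and Inhba, had an unadjusted p under 0.05, against 5.02% of all genes, and 6 of the 9 did not overlap between the groups, against 37.1% of all genes.

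The 250 bases before the RefSeq start of Inhba (GRCm38.p6, plus strand, chr13:16011601-16011850) are shown because the level of this gene differed most, in CPM per kilobase, between libraries of 1 group. Capitals mark the only match to TATAAA, 91 bases before the start.

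Inhba: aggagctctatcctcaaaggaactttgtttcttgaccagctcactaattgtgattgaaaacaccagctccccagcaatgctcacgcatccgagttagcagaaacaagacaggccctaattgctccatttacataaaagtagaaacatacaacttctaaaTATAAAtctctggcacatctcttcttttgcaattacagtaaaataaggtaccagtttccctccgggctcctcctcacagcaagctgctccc

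The letters TGACGTCA (a cyclic AMP response element, in 1.62% of all windows), TGANTCA (an AP-1 site, 6.87%), CACGTG and CAGAC are not in this window. Windows were kept for 5 of the 9 genes, the others being Tgfb1, Tgfbr1 and Tgfbr2. A window was kept only if its RefSeq start lay within 5 bases of the GENCODE start. None on chromosome 18, which holds Smad7, was kept. Of the 5 motifs, Tgfb1 and Tgfbr1 held none and Tgfbr2 held CAGAC, 160 bases before its start.

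Fst encodes follistatin, which binds activin and blocks it, and lies on the minus strand of chromosome 13, from 114452290 to 114458951. It was the lowest of the 9 genes in median level per kilobase. Its level was 1.63 CPM in Sham1, 5.78 CPM in Sham2 and 0.625 CPM in Sham3, and 3.43 CPM in TBI1, 1.20 CPM in TBI2 and 0.450 CPM in TBI3. As for Inhba, Sham2 was the highest library and TBI1 the next. The highest sham library was 9.25 times the lowest, a ratio reached or passed by 4.43% of all genes tested. The log2 fold change was -0.66 (SE 0.97, edgeR QL adjusted p 0.983), and it was 0.59 without Sham2 and -1.70 without TBI1. Fst had only 16 to 232 counts per library, and the antisense gene Gm47040, which shares 115 of its bases (2.51%), had at most 9. Per kilobase, Inhba was 4.56, 8.26 and 12.5 times as high as Fst in Sham1 to Sham3 and 5.92, 3.84 and 9.83 times as high in TBI1 to TBI3, so the ratio of activin subunit to antagonist overlapped between the groups.

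Neuronal activity genes and reactive astrocyte markers were both high in the library where Inhba and Fst were highest. Of the 10 activity genes 7 were highest in Sham2 and 3 in TBI1. Their summed level was 464, 828 and 389 CPM in Sham1 to Sham3 and 680, 342 and 193 CPM in TBI1 to TBI3, with no gene at 0. The reactive astrocyte markers summed to 715, 4950 and 717 CPM in sham and to 1762, 1411 and 637 CPM in TBI, with Timp1 at 0 counts in Sham1. The part of these markers in the levels of Inhba and Fst was not tested. The tested genes whose profile over the 6 libraries was nearest to that of Inhba, by the root mean square difference of centred log2 CPM, were Jsrp1 (0.20), Nptx2 (0.26) and Plb1 (0.37). Nearest profiles here, as for Fst and Thbs1, were picked by likeness, so their matching levels are no separate observation. Nptx2, a secreted pentraxin of excitatory synapses induced by activity, is also among the 10 activity genes. It was at 35.1, 146 and 35.0 CPM in sham and at 70.5, 24.1 and 17.8 CPM in TBI. Jsrp1, the nearest, was at 2.74, 14.1 and 3.13 CPM in sham and at 8.28, 1.71 and 2.02 CPM in TBI. The nearest to Fst were Cdsn (0.14), Gipr (0.28) and Hmcn2 (0.43), all of them at low levels like Fst itself.

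Smad7 encodes the inhibitory Smad that is induced by TGF-beta and blocks its receptor. It lies on the plus strand of chromosome 18, from 75367529 to 75395935. Its level was 35.3, 32.3 and 27.9 CPM in Sham1 to Sham3 and 43.7, 28.2 and 33.9 CPM in TBI1 to TBI3. The groups overlapped and Sham2 was the middle sham library, in contrast to the activin genes. Sham libraries averaged 31.8 ± 3.70 CPM and TBI libraries 35.2 ± 7.85 CPM (SD, n = 3 each). For Smad7 the fitted log2 difference was 0.15 (SE 0.20, edgeR QL adjusted p 0.982), and -0.037 without TBI1, the library in which Smad7 was highest.

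Thbs1 encodes thrombospondin 1, a matrix glycoprotein of platelets, astrocytes and vessels that releases TGF-beta from its latent complex and is itself a TGF-beta target. It lies on the plus strand of chromosome 2, from 118111876 to 118127133. Its level was 2.77 CPM in Sham1, 23.8 CPM in Sham2 and 2.81 CPM in Sham3, and 3.31 CPM in TBI1, 7.62 CPM in TBI2 and 3.29 CPM in TBI3. Sham2 was 8.60 times the lowest sham library, a ratio reached or passed by 4.74% of all genes tested, and all 3 TBI libraries were above Sham1 and Sham3. The log2 fold change was -1.05 (SE 0.91, edgeR QL adjusted p 0.982). Without Sham2 the sign turned, to 0.76 (SE 0.47, edgeR QL adjusted p 0.997), and the groups did not overlap. The opposite-strand gene Gm29233, which shares 208 bases (3.42%) with Thbs1, was at 0 counts in every library. Without Sham2 the groups did not overlap in 4 of the 9 genes, Tgfb2, Tgfb3, Tgfbr1 and Thbs1, against 20.4% of all genes tested, and the edgeR QL test gave 0 of the 9 an unadjusted p under 0.05 (3.39% of all genes).

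Platelet and red cell markers summed to 206, 436 and 143 CPM in Sham1 to Sham3 and to 148, 611 and 217 CPM in TBI1 to TBI3, with most of the sum from haemoglobin genes. Sham2 and TBI2, the highest libraries of this sum, were also those in which Thbs1 was highest in each group. The 4 haemoglobin genes and Alas2, an enzyme of haem synthesis, were highest in TBI2 and next in Sham2. The platelet genes, chosen after their values were seen, were mixed. Ppbp, which did not pass the filter, followed the same order with 28 counts in TBI2, 14 in Sham2 and 0 elsewhere, and Pf4 was highest in Sham2 (158 counts) and next, by CPM, in TBI2 (83 counts). Itga2b was highest in Sham2, whereas Gp9 was lowest in Sham2, and Gp1bb was lowest in TBI2 and highest in TBI1. Markers of border-associated and infiltrating myeloid cells were likewise highest in Sham2 (65.5 CPM) and TBI2 (60.2 CPM) and between 23.3 and 35.3 CPM elsewhere, with Plac8 at 0 in Sham1 and Ccr2 at 0 in TBI3. The part of these lists in the level of Thbs1 was not tested. The nearest profiles to Thbs1 were those of Oasl2 (0.22), Lox (0.31) and Aldh1a3 (0.31). Lox, which encodes the collagen cross-linking enzyme lysyl oxidase, was at 6.38 CPM in Sham2 and at 0.417 to 1.26 CPM in the other libraries.

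**Figure D2:**
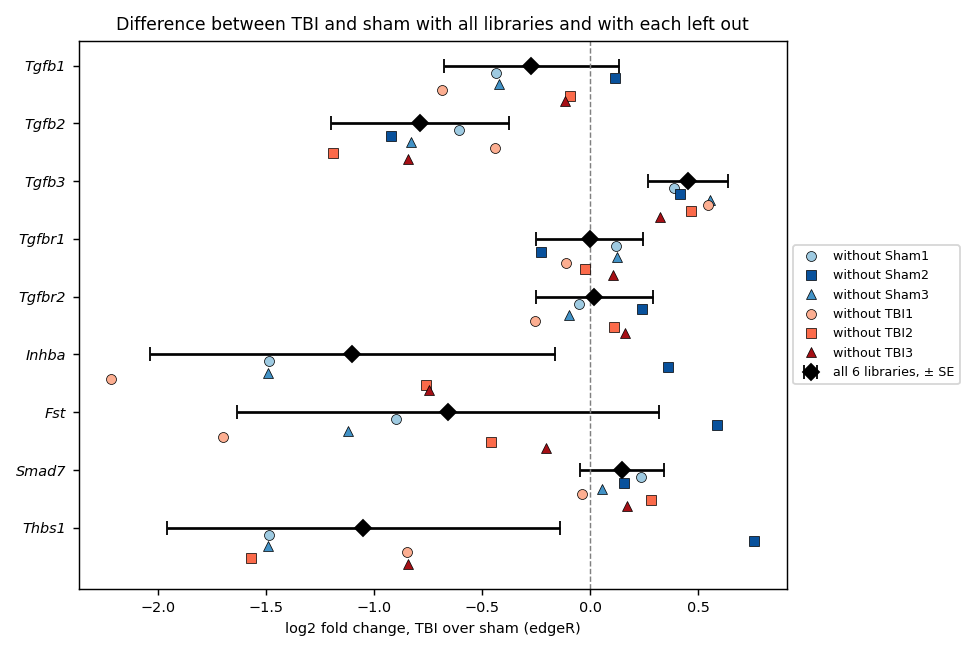
Log2 fold change of TBI over sham (horizontal axis) for each gene with all 6 libraries (black diamond, bar = standard error back-calculated from the QL statistic) and with each library left out (coloured symbols). Without Sham2 the value moved to 0.12 for Tgfb1, 0.36 for Inhba, 0.59 for Fst and 0.76 for Thbs1, while Tgfb2 stayed below and Tgfb3 above 0.

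By median level per kilobase over the 6 libraries the order was Smad7 (7.31 CPM per kb), Tgfbr1 (6.38), Tgfb2 (6.04), Tgfb3 (4.43), Tgfbr2 (2.67), Inhba (1.66), Tgfb1 (1.14), Thbs1 (0.543) and Fst (0.308). Neighbours in this order overlapped in their ranges over the libraries. The range was 1.93 to 8.96 CPM per kb for Tgfb2 and 0.963 to 10.4 CPM per kb for Inhba, so that Inhba was the highest of the 9 genes in Sham2 and the seventh of the 9 in TBI2.

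The rest of the pathway was taken from lists of ligands, receptors, Smads, feedback genes, target genes and the BMP branch, with 86 genes besides the 9, of which 79 passed the filter. The edgeR QL test called 0 of the 79, and 1 of them, Ltbp2, had an unadjusted p under 0.05, against 4.29% of all genes tested. Of the 79 genes 25 were higher and 54 lower in TBI, and the median log2 fold change was -0.12. Without Sham2 the median was 0.069, and without Sham2 and TBI1 it was -0.047. Over the same settings the median of the 9 genes was 0.24 and -0.30.

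The list counts that follow include those of the 9 genes that belong to a list. Among 14 tested genes of TGF-beta ligands, latency and activation, 5 were higher and 9 lower in TBI, and the median log2 fold change was -0.20 with all libraries and 0.13 without Sham2. Itgb8 and Itgav, the chains of an integrin that frees TGF-beta from its latent complex on glial cells, had the highest CPM of the list, a ranking that does not allow for gene length. Itgb8 was at 84.3, 49.7 and 72.5 CPM in sham and at 73.1, 90.9 and 94.2 CPM in TBI (log2 fold change 0.32, SE 0.22). Itgav was at 20.5, 121 and 50.9 CPM in sham and at 105, 27.2 and 54.4 CPM in TBI, high in the same libraries, Sham2 and TBI1, as Inhba. Ltbp2, a latent TGF-beta binding protein of the matrix, had at most 12 counts in any sham library and 38, 5 and 229 counts in TBI1 to TBI3, most of them in the library with cerebellar markers. The edgeR QL test gave Ltbp2 an unadjusted p of 0.0387 and an adjusted p of 0.982. The part of the cerebellar markers in its level was not tested.

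Of 9 tested activin-type ligands and binding proteins 3 were higher and 6 lower, with a median of -0.079 that was 0.36 without Sham2. Gdf1 was the most abundant, at 58.8 to 59.9 CPM in sham and 45.8 to 68.4 CPM in TBI. Inha, whose product turns activin subunits into inhibins, was at 8.32, 9.32 and 8.26 CPM in sham and 14.2, 8.50 and 11.0 CPM in TBI (log2 fold change 0.38, SE 0.23). In Inha, in contrast to Inhba, Sham2 was close to the other sham libraries. Gdf11, a ligand that signals through activin receptors, was at 24.9 to 37.98 CPM in sham and 23.6 to 43.7 CPM in TBI. Tdgf1, a co-receptor for Nodal, had 13 to 40 counts in 5 libraries and 167 in TBI3.

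The 10 receptors and co-receptors were 5 higher and 5 lower, with a median of 0.0089 that ran from -0.14 without TBI1 to 0.10 without TBI3 and was 0.068 without Sham2. Acvr1b, the type I activin receptor, was the most abundant, at 131, 158 and 134 CPM in sham and 162, 125 and 126 CPM in TBI (log2 fold change -0.038, SE 0.15). Acvr2a, a type II activin receptor, was at 42.3 to 51.4 CPM in sham and 37.0 to 46.0 CPM in TBI. Acvrl1, a type I receptor of endothelial cells, had the smallest p of the list and was at 33.4 CPM in TBI1 and 3.61 to 8.34 CPM in the other libraries. The high Acvrl1 value was thus that of 1 library, the one with striatal markers, and the log2 fold change was 1.33 (SE 0.69, edgeR QL adjusted p 0.982). The part of the striatal markers in this value was not tested.

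Of the 7 tested Smads and partners 1 was higher and 6 lower, with a median of -0.10 that was -0.038 without Sham2. Zfyve9, which presents Smad2 and Smad3 to the receptor, was at 86.1 to 107 CPM in sham and 85.0 to 128 CPM in TBI, and Smad2 at 12.9 to 21.3 CPM in sham and 12.7 to 16.0 CPM in TBI. Trim33, a ubiquitin ligase that binds Smads, was at 71.3 to 78.7 CPM in sham and 52.3 to 73.2 CPM in TBI. Of 11 feedback genes 3 were higher and 8 lower, with a median of -0.12 that was 0.14 without Sham2 and 0.033 without TBI3. Ppm1a, a phosphatase that acts on Smad2 and Smad3, was at 282, 268 and 144 CPM in sham and at 314, 299 and 307 CPM in TBI (log2 fold change 0.41, SE 0.25, edgeR QL adjusted p 0.982). The Smad co-repressor gene Ski was at 168 to 232 CPM in sham and 154 to 239 CPM in TBI, and Tgif1, another co-repressor, at 1.77 to 4.61 CPM in sham and 1.46 to 2.47 CPM in TBI. Pmepa1, a TGF-beta-induced gene that limits Smad signalling and was chosen after its values were seen, had 1079, 7277 and 1172 counts in sham and 5555, 1032 and 1106 counts in TBI, again high in Sham2 and TBI1. The 17 genes of the BMP branch were 9 higher and 8 lower, with a median of 0.038 that ran from -0.095 to 0.084 with 1 library left out. Relative to the sham mean, the average of the BMP genes stayed between -0.056 and 0.065 on the log2 scale in all 6 libraries (mean over genes), and Chrd, an extracellular BMP antagonist, had the smallest p of this list, at 24.3 to 35.8 CPM in sham and 9.95 to 23.3 CPM in TBI (log2 fold change -0.71). The ligand gene Bmp5 had 81 to 120 counts in sham and 74, 174 and 429 counts in TBI1 to TBI3 (log2 fold change 1.31, SE 0.64, edgeR QL adjusted p 0.982). Bmpr2, the type II BMP receptor, was at 168 to 228 CPM in sham and 148 to 195 CPM in TBI, and Id2, a target of BMP signalling, at 93.3 to 167 CPM in sham and 103 to 141 CPM in TBI.

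**Figure D3:**
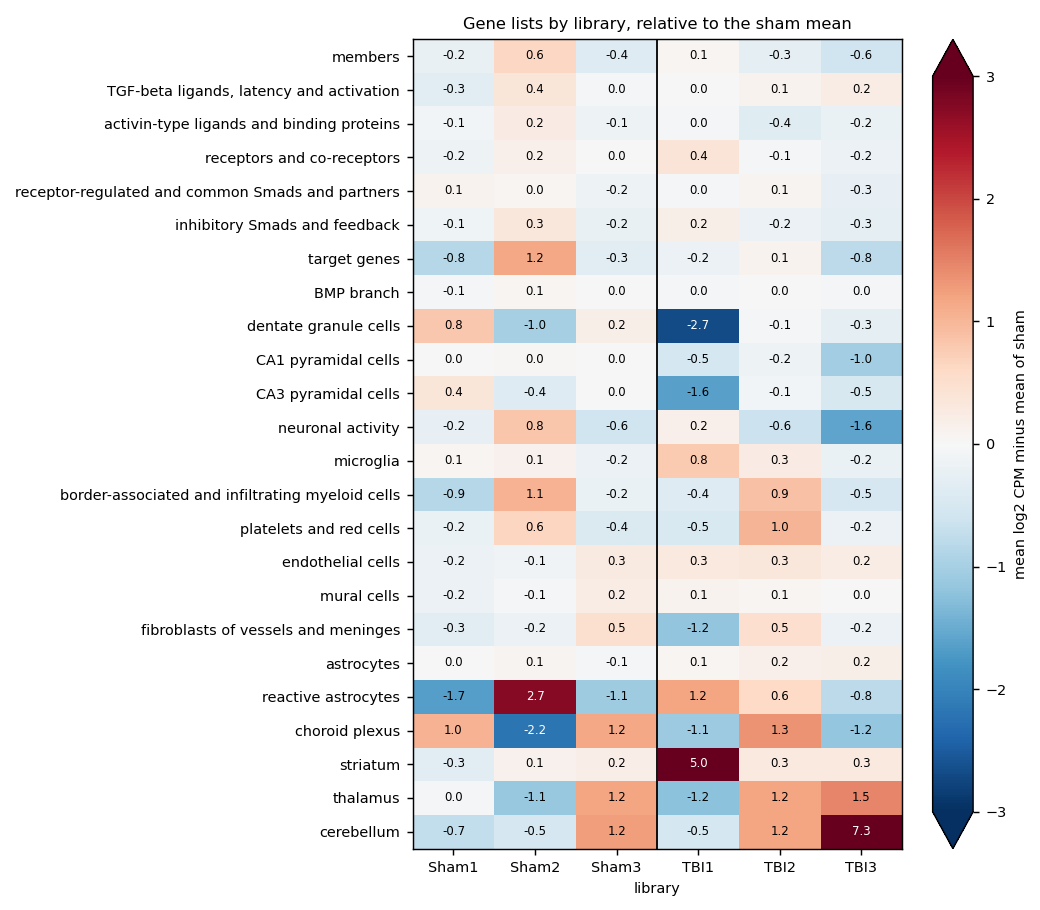
Mean log2 CPM of each gene list minus the mean of the 3 sham libraries (colour, clipped at 3, with the value in each cell) for the 9 genes ("members"), the pathway lists and marker lists in each library. The target genes ran from -0.85 in Sham1 to 1.16 in Sham2, reactive astrocyte markers were highest in Sham2, and striatal and cerebellar markers stood out in TBI1 and TBI3.

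Among the pathway lists, the mean log2 level varied most between libraries in that of the 21 TGF-beta target genes. Of these 2 were higher and 19 lower in TBI, the median log2 fold change was -0.47, and the edgeR QL test gave 0 of them an unadjusted p under 0.05. Without Sham2 the counts were 13 higher and 8 lower, with a median of 0.19. The highest of the 6 libraries was Sham2 for 14 of the 21 target genes (66.7%), where 23.7% of all genes tested were highest in Sham2, and 34 of the 79 pathway genes besides the 9 (43.0%) were. The summed level of the 21 genes was 332, 997 and 401 CPM in Sham1 to Sham3 and 448, 451 and 314 CPM in TBI1 to TBI3. Sham2 was far above every other library, and the TBI libraries spanned the range of Sham1 and Sham3.

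Bhlhe40, a transcriptional repressor, and Junb, an AP-1 subunit, were the most abundant target genes. Bhlhe40 was at 93.5, 154 and 104 CPM in sham and 89.3, 98.1 and 93.3 CPM in TBI, and Junb at 83.8, 167 and 62.2 CPM in sham and 90.9, 61.1 and 30.9 CPM in TBI. Both were highest in Sham2. Pdgfb, which encodes a growth factor for mural cells, was at 21.1, 51.2 and 28.5 CPM in sham and 23.9, 24.7 and 14.7 CPM in TBI (log2 fold change -0.67, SE 0.37, edgeR QL adjusted p 0.982). Snai2, a repressor of epithelial genes, had the smallest p of the list but only 0 to 30 counts.

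Of the 21 target genes the widest range over the libraries was that of Timp1, a secreted inhibitor of matrix metalloproteinases chosen after its values were seen. It had 0, 3083 and 10 counts in Sham1 to Sham3 and 363, 91 and 9 counts in TBI1 to TBI3. The matricellular genes Ccn1 and Ccn2, also chosen after their values were seen, had 2152 and 2958 counts in Sham2. In the other 5 libraries Ccn1 had 188 to 647 counts and Ccn2 353 to 1129. Fitted with all libraries, Timp1 had a log2 difference of -2.67 (SE 2.29, edgeR QL adjusted p 0.982), and this sign rested on Sham2. Without Sham2 the sham libraries held 0 and 10 counts of Timp1, and it was then among the genes with an unadjusted edgeR QL p under 0.05 (3.39% of all genes).

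Not every target gene followed this order, as 4 genes chosen after their values were seen show. Postn, a matrix protein of fibroblasts, had its lowest count, 37, in Sham2 against 49 to 115 elsewhere. Acta2 and Tagln, contractile proteins of mural cells, were highest in Sham3 and TBI1 respectively, and the collagen gene Col1a2 in TBI2. Markers of fibroblasts of vessels and meninges summed to 144, 191 and 304 CPM in sham and 83.2, 237 and 173 CPM in TBI. Mural cell markers summed to 166 to 251 CPM in sham and 203 to 215 CPM in TBI, so neither sum was highest in Sham2. In each of these lists 1 marker was highest in Sham2, of 8 and of 7. The target genes share Col1a1 and Col1a2 with the fibroblast list and Acta2 with the mural list. The summed levels of reactive astrocyte markers and of activity genes, given beside Inhba and Fst, were highest in Sham2, and the target genes share Timp1 with the first list and Junb with the second. Markers of border-associated and infiltrating myeloid cells were also highest there, at 23.3, 65.5 and 35.3 CPM in sham and 33.1, 60.2 and 34.2 CPM in TBI, with Ccr2 at 0 counts in TBI3 and Plac8 in Sham1. The part of these lists in the levels of the target genes was not tested.

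**Figure D4:**
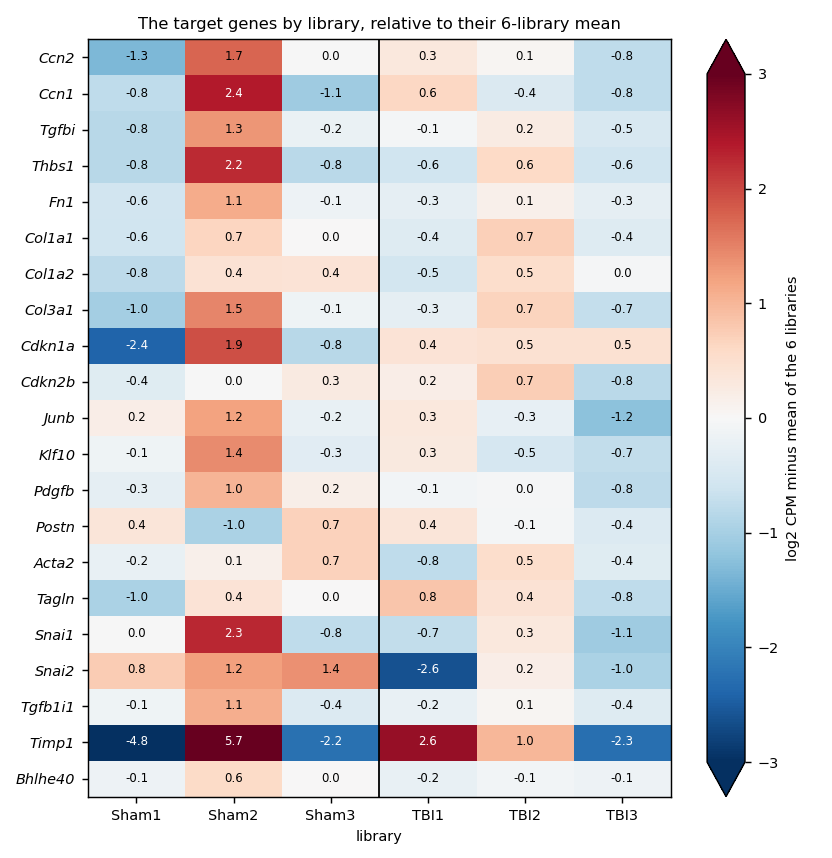
Log2 CPM of each of the 21 TGF-beta target genes minus its mean over the 6 libraries (colour, clipped at 3, with the value in each cell), by library. Sham2 was the highest library for 14 of the 21 genes, with Timp1 at the top of the range, while Postn was lowest there.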

How the data were processed

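Hippocampal RNA of 3 sham and 3 TBI mice was sequenced on an Illumina NovaSeq. The submitters' processing notes name FastQC, HISAT2, StringTie and the build GRCm38, with no versions used here. The authors deposited 1 estimated count per gene and library, a whole number with no normalization. The step from coverage to counts and the annotation release are not given in the sources used here. Low values pile up at multiples of 4 (the value 4 occurred 5109 times and 3 occurred 2325 times), and no counting interval is given for that reason. Of 52550 identifiers 52403 matched a symbol, and lengths and coordinates came from GENCODE vM21.

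Computations used edgeR 4.0.16 and DESeq2 1.42.0 in R 4.3.3. After filterByExpr and TMM scaling (factors 0.970 to 1.02), the quasi-likelihood (QL) test of edgeR was run on all 6 libraries without covariates, and p-values were adjusted by Benjamini-Hochberg over 18795 genes. The design had assumed read counts, and the deposited estimates, being whole, were used without rounding. Levels used log2 CPM with a prior count of 2 in the exact permutation tests. The SE of an edgeR log2 fold change was back-calculated, as its absolute value divided by the square root of the QL F statistic. The tests of edgeR and DESeq2 were also run on simulated data with known fold changes. The outcome is not given here, so it is no measure of how many real changes were missed. The 9 genes and the lists were chosen with earlier results of these data known, and 1 target gene is not reported here and was left out of its list. Named genes were the 9, the 2 most abundant and the 2 with the smallest p of each pathway list, the 2 most abundant of marker lists (given, Gfap aside, within list sums), overlapping genes and the 3 nearest profiles of Inhba, Fst and Thbs1. Other genes were chosen after their values were seen. Alternatives were DESeq2, other scalings and filters, robust dispersions, counts divided by 4, each library left out and the replicate number as a block. DESeq2 with each library left out, and leaving out Sham2 with TBI1 or TBI1 with TBI3, were added after seeing the data.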

Additional observations from a re-analysis of the deposited data

How the results depend on the processing

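None of the 18 alternatives called any of the 9 genes, and neither did DESeq2 in the 6 further runs that each dropped a library. The number with an unadjusted p under 0.05, 1 with all libraries, was 2 with DESeq2's defaults, 0 with library totals (4.13% of all genes) and 0 to 1 with 1 library left out (2.49% to 5.82% of all genes), the 1 being Tgfb3 without Sham3 or TBI1 and Tgfb2 without TBI2. It was 2 without Sham2 and TBI1 and 0 without TBI1 and TBI3 (1.7%), which leaves TBI2 alone against 3 sham libraries, taken to vary as they do. Genes whose groups did not overlap went from 1 to between 1 and 4 with 1 library left out (17.5% to 22.7% of all genes), to 6 without Sham2 and TBI1 (37.1%) and, for TBI2 alone outside the sham range, to 3 without TBI1 and TBI3 (43.4%). Of the other pathway genes 1 had an unadjusted p under 0.05, against 6 with DESeq2's defaults (4.11% of all genes) and 6 with DESeq2 on the filtered genes (5.74%), 2 with at least 1 count in any library (3.48%), 0 with at least 10 counts in every library (4.82%) or with counts divided by 4 (4.47%), 1 to 6 with 1 library left out, 7 without Sham2 and TBI1 (5.02%) and 2 without TBI1 and TBI3 (1.7%).

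Tgfb2 and Tgfb3 kept their direction in all 18 alternatives. With 1 library left out, the log2 fold change ran from -0.68 to 0.12 for Tgfb1, from -0.23 to 0.13 for Tgfbr1, from -0.25 to 0.24 for Tgfbr2, from -2.22 to 0.36 for Inhba, from -1.70 to 0.59 for Fst, from -0.037 to 0.28 for Smad7 and from -1.57 to 0.76 for Thbs1. Without Sham2 and TBI1 it was -0.33 for Tgfbr1, -0.036 for Tgfbr2, -0.027 for Smad7 and 0.96 for Thbs1, and without TBI1 and TBI3 it was -0.72 for Tgfb1, 0.026 for Tgfbr1, -0.19 for Tgfbr2 and -0.18 for Smad7. For Tgfbr1, close to 0, it was 0.0047 with library totals, 0.0045 with at least 10 counts in every library, 0.0071 with counts divided by 4 and 0.032 with the replicate block. The cause of these changes was not tested.

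Replicate numbers did not pair the libraries: the correlations of deviations from the group means were -0.0996, -0.065 and 0.153 for numbers 1 to 3, and not every library correlated best with its own number. With the replicate block 0 of the 9 genes were called and 1, Tgfb3, had an unadjusted p under 0.05 (3.85% of all genes). Of the other pathway genes 1 did, Chrd in place of Ltbp2. The log2 fold change of Thbs1 went from -1.05 to -0.38, and the median from -0.47 to -0.27 for the target genes and from 0.038 to -0.050 for the BMP branch. The common coefficient of biological variation was 0.374 with 3 mice per group. Fst, at 16 to 232 counts, had the largest SE of the 9 genes in the main fit (0.97). With the replicate block (1.05) or DESeq2's defaults (1.08) the largest SE was that of Inhba.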
